A study of Mus musculus with 384 samples.

Results

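*Slc6a15* and *Slco3a1* are the transporter genes described here, chosen by their symbols as 2 of the 69 assays in a targeted RNA panel. *Slc7a7*, the remaining solute carrier of the panel, was read only for comparison. The samples were micropunches of 12 brain regions of 32 male Balb/c mice. The study reared mice either with limited nesting and bedding material (LM) or with early handling for 15 min a day (EH), from postnatal day 2 to 9, and at 12 weeks of age housed them for 3 weeks with an ovariectomized female (OX) or exposed them to chronic social defeat (CD). The sample labels do not use these names. They give 4 groups of 8 mice, named Co naive, Co inject, MS naive or MS inject, state an age of postnatal day 9, and name a region Pit where the study lists the nucleus accumbens. The label groups were therefore compared under their own names, and no statement is made on rearing or defeat. Values were at hand for 380 of 384 samples.

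*Slc6a15* encodes a sodium-dependent transporter of neutral amino acids, branched-chain amino acids and proline among them, and is known as a gene of neurons. *Slco3a1* encodes a member of the organic anion transporting polypeptides, which carry prostaglandins and thyroid hormone across the plasma membrane without coupling to sodium. The study lists *Slco3a1* as the mouse counterpart of a human gene whose response to glucocorticoids varies with a variant linked to psychiatric risk. *Slc7a7* encodes a light subunit of an amino acid exchanger that carries cationic amino acids.

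Each assay amplified a stretch across an exon junction, and the junctions are shown because they say which transcripts a value can count. *Slc6a15* (ENSMUSG00000019894.14) lies on the plus strand of GRCm38 at chr10:103367783-103419377, with no overlapping gene in GENCODE M21. Its assay is numbered 11 and 12 on NM_175328, which, counted from 0, is the junction of exons 12 and 13 of 13, in coding sequence (chr10:103416771-103416795 and chr10:103418023-103418047). *Slco3a1* (ENSMUSG00000025790.14) lies on the minus strand at chr7:74275419-74554780. Its assay carries the numbers 9 and 8 on NM_001038643, and the numbering can be read in 2 ways. Counted along the transcript these are exons 9 and 10 of 11 (chr7:74297221-74297245 and chr7:74284645-74284669), and counted along the plus strand they are exons 2 and 3 (chr7:74504177-74504201 and chr7:74359895-74359919). In the panel all 37 assays of plus-strand genes have ascending numbers and all 31 of minus-strand genes descending ones, which does not settle the reading. Both candidate junctions are coding and are also found in the other annotated transcript, NM_023908, so under either reading the assay does not separate these 2 transcripts. The antisense gene Gm7580 overlaps *Slco3a1* at chr7:74392698-74411233 but covers neither junction. The sequences below are the GENCODE M21 transcripts from 25 bases on each side, 5′ to 3′, with the downstream exon in capitals.
*Slc6a15*, exons 12 and 13: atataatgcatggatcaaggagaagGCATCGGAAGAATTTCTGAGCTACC
*Slco3a1*, exons 9 and 10: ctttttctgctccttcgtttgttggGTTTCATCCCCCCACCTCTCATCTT
*Slco3a1*, exons 2 and 3: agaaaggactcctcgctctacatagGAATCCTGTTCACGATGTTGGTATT

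Levels are normalized values, that is, reads of an assay divided by a size factor of the sample, and they are compared only within a gene because assays differ in how well they amplify. The libraries held 12898 to 261007 reads with a median of 139846. None of the 33 marker genes listed for neurons, glia, vessels, the pituitary and single brain regions is among the 69 assays, so neither the cell makeup of a punch nor its region label could be checked against markers. The columns Pit, dDG and vDG each mixed samples with *Anxa2* values over and under 1000 (16 of 32, 8 of 32 and 7 of 31 over), and CER, dCA3 and vCA3 each mixed samples with *Ociad2* values over and under 1000 (24, 24 and 16 of 32 over). Among the 32 mice, 16 had 1 of the first 3 columns over 1000 in *Anxa2*, 6 had 2, 1 had all 3 and 9 had none. Of the latter 3 columns, 19 mice had 2 over 1000 in *Ociad2*, 7 had all 3, 5 had 1 and 1 had none. Which tissue these 6 columns hold is therefore in doubt, and their names below are labels only. The samples over 1000 in *Anxa2* stood in nearly fixed numbers in the label groups, 4 of 8 in each group of Pit, 2 of 8 in each of dDG and, in vDG, 1 of 7 in Co naive and 2 of 8 in the others. In the other 9 regions, samples with the same mouse number did not deviate together (median r of 0.0013 over 1128 pairs of samples), so whether a number joins the samples of 1 animal is in doubt as well, and the tests over mouse means below rest on these numbers. Libraries were prepared on plates of 3 regions each, and which regions shared a plate was not stated, so a difference between regions and one between plates cannot be told apart. In such bulk samples fewer cells of a type and less RNA per cell cannot be told apart either.

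*Slc6a15* was read in each of the 380 samples and its lowest levels were those of a group of samples in Pit, dDG and vDG. Its reads per sample ran from 19 to 1476 with a median of 483, and its normalized value from 16.6 to 1128 with a median of 439. The highest region median was that of vDG (592, 22.6 to 953, n = 31), followed by vCA1 (584, 269 to 1021, n = 32). The lowest was that of Pit (193, 17.8 to 936, n = 32). The Pit median falls in a gap between a high and a low set of samples rather than near any sample.

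In the other 9 regions the values of *Slc6a15* formed a single broad range. In AMY the median was 502 (224 to 879), in PVN 499 (117 to 1128, n = 30) and in dCA1 487 (171 to 710). In PFC it was 431 (96.0 to 731), in vCA3 427 (219 to 967) and in BNST 420 (144 to 765, n = 31). The lowest medians of the 9 were those of CER (388, 230 to 793) and dCA3 (364, 203 to 667), and each of these ranges overlapped that of every other region. Medians of the 12 regions spanned 3.07-fold, and 1.60-fold without Pit, dDG and vDG. Of the sum of squares on the log2 scale, 20.5% lay between regions and 5.34% between mice, and without Pit, dDG and vDG 11.4% and 8.37%. These are raw shares, not corrected for the numbers of regions and mice, and would be above 0 without any difference.

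**Figure D1:**
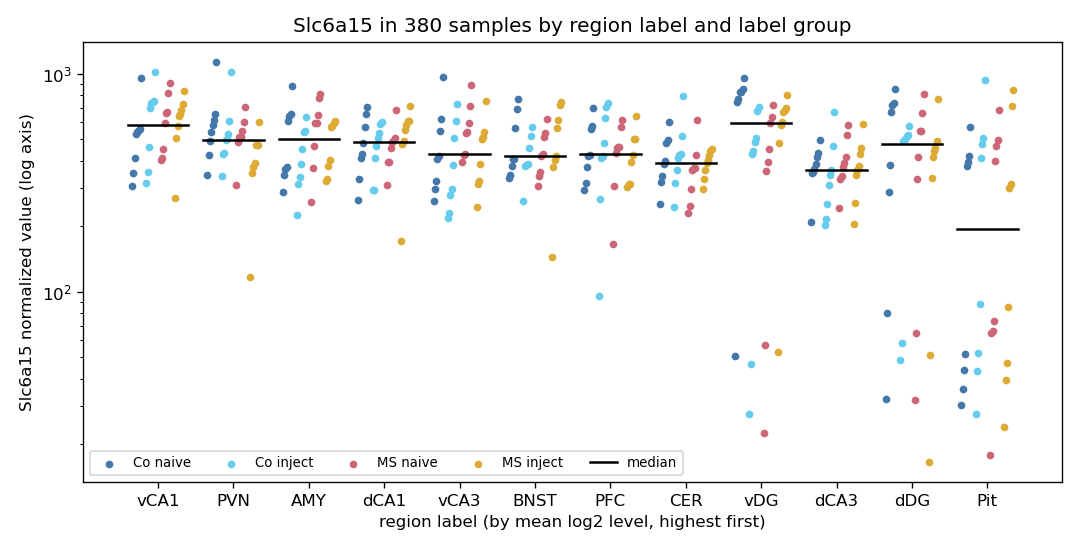
Normalized value of *Slc6a15* (log axis) in each sample against region label, ordered by mean log2 level, with a colour for each label group and a line at the region's median. A set of low samples, with values from 16.6 to 88.1, is seen only under vDG, dDG and Pit, and it holds samples of all 4 label groups.

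By mean log2 level the order was vCA1, PVN, AMY, dCA1, vCA3, BNST, PFC, CER, vDG, dCA3, dDG and Pit. With limma on log2(value + 1), at a Benjamini-Hochberg adjusted p under 0.1 over all assays and pairs, 21 of 66 region pairs differed for *Slc6a15*, against 51.2% of pairs over all 69 assays. Of these, 19 involved Pit, dDG or vDG. Only 1 of the 11 neighbouring pairs in the order differed, dDG being higher than Pit by 0.90 on the log2 scale (SE 0.24, adjusted p = 0.00072). The lower level of Pit against vCA1 had the largest difference, 1.90 on the log2 scale (SE 0.24, adjusted p = 5.26e-13). The Pit mean joins 16 samples over 1000 in *Anxa2* (mean log2 5.53) and 16 under it (8.94), where vCA1 had 9.14. Differences that involve Pit, dDG or vDG thus depend on how many samples of a column were over 1000.

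Among the other 9 regions the 2 pairs that differed were vCA1 above dCA3 (0.65, 95% interval 0.18 to 1.12 on the log2 scale, adjusted p = 0.018) and vCA1 above CER (0.55, 0.08 to 1.02, adjusted p = 0.047). Fitted to these 9 regions alone, where the spread within a region was 0.50 rather than 0.94 (SD, log2 scale), 14 of the 36 pairs differed, close to the 35.8% of pairs over all assays in the same fit. In that fit vCA1, the ventral hippocampal CA1 field, was higher than 7 of the 8 others, all but PVN. The column dCA3, whose tissue is in doubt, was lower than 6.

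In the columns Pit, dDG and vDG, *Slc6a15* was low where *Anxa2*, which encodes a calcium-dependent phospholipid-binding protein, was over 1000. These values are a description without a test, since *Anxa2* was used to divide the samples. Over 1000, *Slc6a15* had a median of 48.6 in 31 samples, and under 1000 a median of 522 in 64 samples, a 10.7-fold difference. Within single columns the ratio of medians was 10.4 in Pit, 10.2 in dDG and 12.8 in vDG, so it was of like size whichever region the label gave.

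The ranges on either side of the division did not meet, apart from 1 sample. How many of the 69 assays separate in this way was not counted, so the split is not shown to be particular to *Slc6a15*. In 30 of the 31 samples over 1000 *Slc6a15* lay between 16.6 and 88.1 (47.7 ± 19.4, SD), and under 1000 it lay between 286 and 953 (568 ± 169, SD, n = 64). The exception was the vDG sample of mouse 83 (MS inject), with a *Slc6a15* value of 800, an *Anxa2* value of 21258 and a *Slc7a7* value of 793. By label group, the medians over 1000 were 43.8 (Co naive, n = 7), 47.6 (Co inject, n = 8), 60.9 (MS naive, n = 8) and 49.1 (MS inject, n = 8), with overlapping ranges. Under 1000, with 16 samples a group, they were 726, 506, 524 and 537 in the same order, again with overlapping ranges.

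The level of *Slco3a1* in the same samples was close on both sides. Its median was 191 (110 to 373) over 1000 and 197 (88.1 to 395) under 1000, a ratio of 1.03. By column the ratio of the median under 1000 to that over 1000 was 1.04 in Pit, 0.899 in dDG and 1.21 in vDG.

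**Figure D2:**
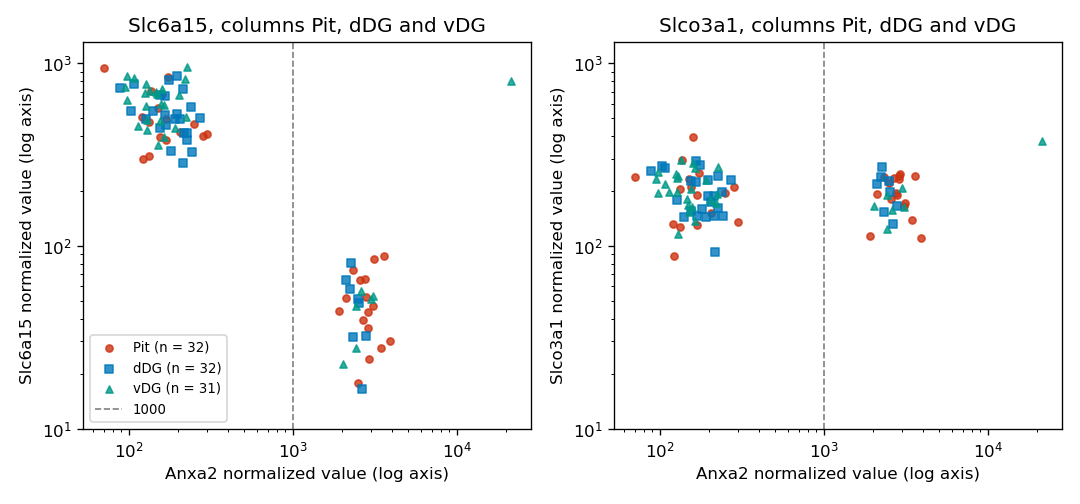
Normalized values of *Slc6a15* (left) and *Slco3a1* (right) against that of *Anxa2* in the samples labelled Pit, dDG and vDG, on log axes, with a dashed line at an *Anxa2* value of 1000. For *Slc6a15* the points fall into a high set (286 to 953) and a low set (16.6 to 88.1) plus 1 sample at 800 on the far right, while the *Slco3a1* values of both sides overlap.

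*Slc6a15* was compared in the same way over the division of CER, dCA3 and vCA3 by *Ociad2* at 1000, again without a test. Its median was 366 over and 508 under 1000 in CER, 358 and 417 in dCA3, and 518 and 421 in vCA3. The ranges overlapped in each region and the direction in vCA3 was opposite to that in the other two. For *Slco3a1* the medians over and under were 256 and 228 in CER, 246 and 230 in dCA3, and 348 and 263 in vCA3, with overlapping ranges.

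*Slco3a1* differed between more regions than *Slc6a15* did, with the highest level in BNST. Its reads per sample ran from 1 to 826 with a median of 252.5, and its normalized value from 1.68 to 681 with a median of 235. BNST had a median of 433 (176 to 672, n = 31), PFC 350 (107 to 594) and AMY 313 (47.5 to 564). These 3 medians stood above those of the remaining 9 regions.

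In the columns vCA3, CER and dCA3, whose tissue is in doubt, *Slco3a1* was intermediate by median. It was lower in vDG, Pit, dDG, PVN, vCA1 and dCA1. By mean log2 level vCA3 (8.31) stood above AMY (8.18), and these did not differ (adjusted p = 0.52 by limma). The medians were 281 (194 to 620) in vCA3, 255 (132 to 422) in CER and 238 (138 to 681) in dCA3. They were 198 (116 to 373, n = 31) in vDG, 195 (88.1 to 395) in Pit and 192 (92.9 to 293) in dDG. In PVN the median was 217 (1.68 to 300, n = 30), in vCA1 200.5 (9.27 to 330) and in dCA1 170 (52.1 to 388). The lowest samples in PVN and vCA1 rest on 1 read of *Slco3a1* each, in libraries of 85930 reads (mouse 267, Co inject) and 12898 reads (mouse 99, MS inject). Medians spanned 2.55-fold over the 12 regions, and 31.4% of the sum of squares on the log2 scale lay between regions, again a raw share.

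**Figure D3:**
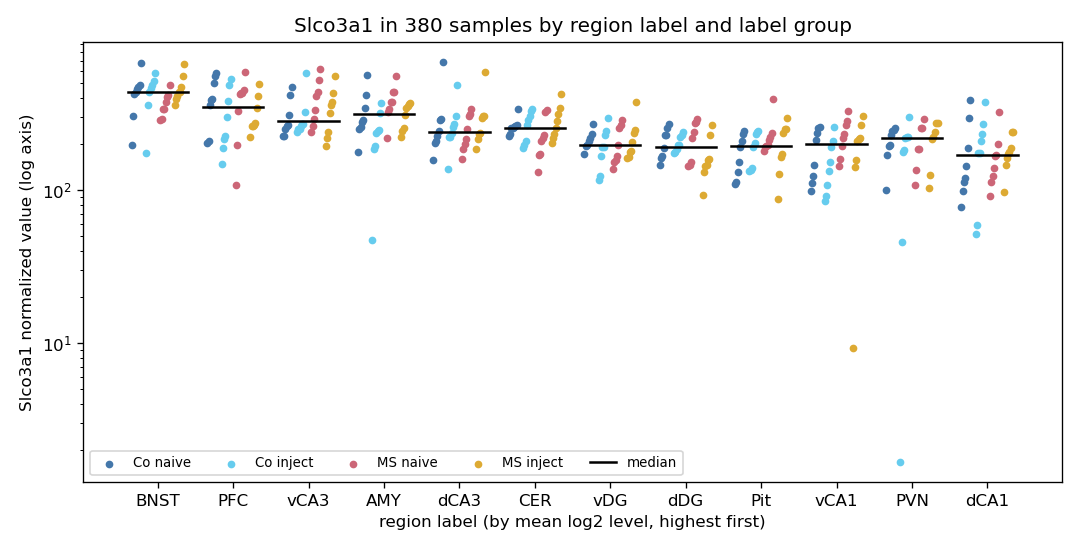
Normalized value of *Slco3a1* (log axis) in each sample against region label, ordered by mean log2 level, with a colour for each label group and a line at the region's median. BNST stands highest with a median of 433 and dCA1 lowest by mean, and the 2 samples with 1 read (1.68 and 9.27) are seen under PVN and vCA1.

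By mean log2 level the order was BNST, PFC, vCA3, AMY, dCA3, CER, vDG, dDG, Pit, vCA1, PVN and dCA1. The means of PVN and vCA1 each include a sample with 1 read. By median PVN (217) and vCA1 (200.5) stood above vDG (198), Pit (195) and dDG (192). For *Slco3a1* 45 of 66 region pairs differed in the same limma fit, a number that ranks 7 among the 69 assays, whose median was 36. BNST, the bed nucleus of the stria terminalis, was higher than each of the 11 others, by 0.34 (PFC) to 1.34 (dCA1) on the log2 scale. In the fit without Pit, dDG and vDG 21 of 36 pairs differed, against 35.8% of pairs over all assays. There BNST was higher than 6 of the 8 others, while PFC (adjusted p = 0.14) and vCA3 (adjusted p = 0.11) no longer passed. Of the neighbours in the order, BNST differed from PFC (0.34, SE 0.16, adjusted p = 0.072) and CER from vDG (0.33, SE 0.16, adjusted p = 0.087), and the other 9 neighbouring pairs did not pass the threshold. The 6 regions from vDG to dCA1 each fell below all 6 from BNST to CER, and among these lower 6 only dCA1 and vDG differed (0.32, SE 0.16, adjusted p = 0.098).

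The level of *Slco3a1* also differed between sets of regions formed by library size, without rising or falling steadily with it. Ordered by median reads and taken 3 at a time, the regions were PFC, AMY and BNST (94437 to 99713 reads), dCA1, vCA1 and PVN (111204 to 123975), vDG, dDG and Pit (146657 to 154777), and CER, vCA3 and dCA3 (177414 to 183554). These sets were formed after the values were seen and are not stated to be plates. Region medians of *Slco3a1* did not overlap between the first set (313 to 433), the last (238 to 281) and the middle sets (170 to 217), which overlapped each other. For how many other assays this holds was not counted. *Slco3a1* differed in 3 of 12 pairs within a set and in 42 of 54 pairs between sets, where over all assays 16.9% of pairs within and 58.9% of pairs between sets differed. The 3 pairs within a set were BNST above PFC, BNST above AMY by 0.50 (SE 0.16, adjusted p = 0.0064) and vCA3 above CER by 0.34 (SE 0.16, adjusted p = 0.072). Of these, only BNST above AMY passed in the fit to 9 regions (adjusted p = 0.020), where the other pairs each had an adjusted p of 0.14. For *Slc6a15* the numbers were 2 of 12, both with Pit, and 19 of 54. The part of depth or plate in these differences was not tested.

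For neither gene did a label difference pass the test in any region. Status (MS or Co), injection (inject or naive) and their interaction were tested in each region with limma, and 0 of 36 tests of *Slc6a15* and 0 of 36 of *Slco3a1* passed an adjusted p under 0.1. With 5 principal components of the residuals as covariates, an alternative, 3 of 36 tests of *Slc6a15* passed, in vCA3 and vDG, against 4.12% of tests over all assays. Such components take up residual spread by construction. Over all assays 0% of tests passed for status, 0.121% for injection (1 of 826) and 0% for the interaction. At an unadjusted p under 0.05 there were 0 of 36 for *Slc6a15* and 2 of 36 for *Slco3a1*, both in AMY, where over all assays 22 of 826 tests of status, 31 of injection and 19 of the interaction were under it.

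In AMY, the amygdala, *Slco3a1* had medians of 281 (177 to 564) in Co naive, 238 (47.5 to 370) in Co inject, 378 (218 to 555) in MS naive and 324 (223 to 368) in MS inject, with 8 samples each. All 4 ranges overlapped. MS was above Co by 0.43 on the log2 scale (95% interval 0.02 to 0.84, adjusted p = 0.91 by limma). Inject minus naive was -0.44 (-0.85 to -0.03, adjusted p = 0.41 by limma). Neither passed after adjustment.

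Label-group medians of *Slc6a15* were furthest apart in vDG, from 423 in MS naive (22.6 to 721, n = 8) to 823 in Co naive (50.9 to 953, n = 7), a 1.94-fold span. The interaction of status and injection there was 1.85 on the log2 scale (-0.47 to 4.18, adjusted p = 0.64 by limma). With a term for *Anxa2* over 1000 it was 1.51 (0.39 to 2.63), with an unadjusted p of 0.010 and an adjusted p of 0.17 by limma. Co naive held 1 sample over 1000 in this column and the other groups 2 each, and in MS inject 1 of these was the exception of mouse 83 with a value of 800.

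The call of the vDG interaction depended on the covariates and the libraries used. With all libraries it passed with 5 principal components of the residuals (adjusted p = 3.53e-05 by limma) and with 1 (adjusted p = 0.024 by limma), where 0.282% of tests over all assays passed. Leaving out 3 libraries without a covariate, no test of *Slc6a15* passed. Without that of mouse 83 and the 2 with 1 read of *Slco3a1*, and with the *Anxa2* term, the interaction was 0.93 (0.43 to 1.44, adjusted p = 0.055 by limma) and was the 1 call among 69 assays (1.45%). This fit was chosen after the values were seen. Among the vDG samples under 1000, with 6 in each group, *Slc6a15* had medians of 824 in Co naive (744 to 953), 499 in Co inject (430 to 705), 522 in MS naive (358 to 721) and 635 in MS inject (482 to 697). The Co naive values lay above those of the other 3 groups, in a column described because its span of medians was the widest. In how many of the 69 assays groups separate in this way was not counted. In dDG the 6 Co naive samples under 1000 ran from 286 to 850 and overlapped every other group, as did the 4 in Pit (378 to 570).

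The next widest span of *Slc6a15* was in vCA3, from 339 in Co inject (219 to 724) to 538 in MS naive (396 to 887), with overlapping ranges. There status (0.25 on the log2 scale, adjusted p = 0.052 by limma) and injection (-0.31, adjusted p = 0.022 by limma) passed with 5 components, and not without them. For *Slco3a1* the widest were in PFC (262 in Co inject to 427 in MS naive) and vCA1 (143 in Co inject to 227 in MS naive).

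The precision differed between genes and regions. In the 9 regions without an *Anxa2* division, the 95% intervals of the *Slc6a15* status difference reached at most 0.73 in size on the log2 scale. In Pit, dDG and vDG they reached 1.41 for *Slc6a15*, and with the *Anxa2* term 0.46, 0.57 and 0.59 in the same order, while those of *Slco3a1* in these columns stayed within 0.55. The interval of the *Slco3a1* status difference was widest in PVN, where it ran from -0.48 to 1.36 and where the sample with 1 read lies.

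**Figure D4:**
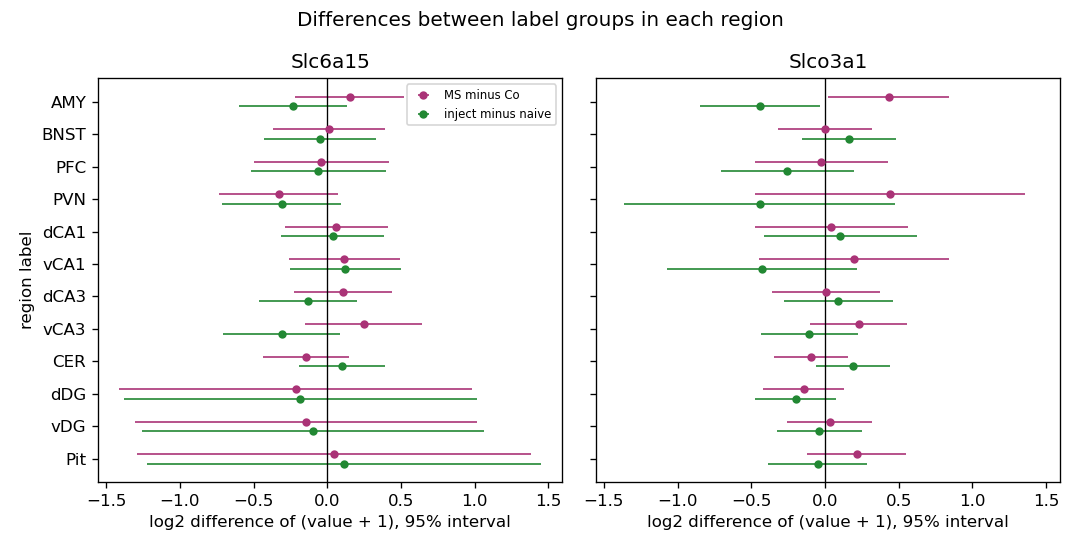
Differences in log2(value + 1) between MS and Co (purple) and between inject and naive (green) in each region, with 95% intervals from limma, for *Slc6a15* (left) and *Slco3a1* (right). Nearly all intervals include 0, the exceptions being those of *Slco3a1* in AMY, and the widest for *Slc6a15* are in dDG, vDG and Pit.

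Averaged over the regions of a mouse, the label groups overlapped for both genes. The mean of region-centred log2 values of *Slc6a15* was 0.07 ± 0.26 in Co naive, -0.06 ± 0.25 in Co inject, 0.01 ± 0.24 in MS naive and -0.02 ± 0.28 in MS inject (SD, 8 mice each). That of *Slco3a1* was 0.03 ± 0.11, -0.15 ± 0.26, 0.09 ± 0.16 and 0.02 ± 0.19 in the same order. The *Slc6a15* means include Pit, dDG and vDG, where nearly all samples over 1000 in *Anxa2* were low. A mouse had 0 to 3 such columns, so their number enters its *Slc6a15* mean and the SD. Mouse 267 of Co inject had the lowest mean of both genes, at -0.48 for *Slc6a15* and -0.61 for *Slco3a1*. Its PVN library held 1 read of *Slco3a1*. Without that library, the vCA1 library with 1 read and the vDG library of mouse 83, it was still the lowest for *Slc6a15* (-0.51), while its *Slco3a1* mean was -0.14, rank 6 from the lowest, and the lowest was -0.33, of another Co inject mouse.

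Tested over the 32 mice with limma, *Slc6a15* differed by -0.01 for MS against Co (95% interval -0.19 to 0.17, adjusted p = 0.98) and by -0.08 for inject against naive (-0.26 to 0.10, adjusted p = 0.98). Under the alternatives its injection value ran from -0.114 (without mouse 93) to -0.048 (without mouse 103). *Slco3a1* differed by 0.11 for MS against Co (-0.02 to 0.24, adjusted p = 0.98) and by -0.12 for inject against naive (-0.25 to 0.01, adjusted p = 0.83). Without the 3 libraries the latter was -0.07, and in AMY, BNST, PFC, PVN, dCA1 and vCA1 alone it was -0.23, with adjusted p of 0.96 and 0.60. The interaction was 0.09 for *Slc6a15* and 0.12 for *Slco3a1*, both with an adjusted p of 0.998. That of *Slc6a15* was 0.020 without mouse 93, 0.15 without mouse 103 and -0.0067 without Pit, dDG and vDG. That of *Slco3a1* was 0.053 without mouse 267, 0.22 without Pit, dDG and vDG and 0.27 in the 6 regions named. None of these passed, where over all assays 0% passed for status, 1.45% for injection and 0% for the interaction, and 1, 4 and 1 of 69 had an unadjusted p under 0.05.

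**Figure D5:**
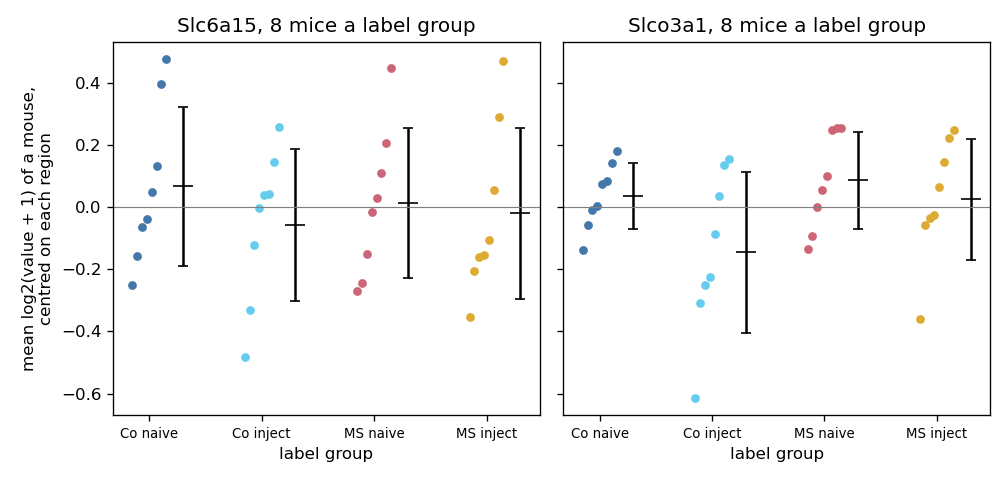
Mean log2(value + 1) of each mouse after centring on each region, by label group, for *Slc6a15* (left) and *Slco3a1* (right), with a bar at the mean and the SD over 8 mice. The groups overlap for both genes, and the lowest point of each panel, at -0.48 and -0.61, is the same Co inject mouse. The value of -0.61 includes a PVN library with 1 read, and was -0.14 without the 3 libraries named above.

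Whether a label difference varied with the region was tested in a single model over all samples. The adjusted p of *Slc6a15* was 0.99974 for status by region and 0.99999 for injection by region, and *Slco3a1* had the same adjusted values. Over all 69 assays 0% passed in either test, and 2 and 4 had an unadjusted p under 0.05.

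Spearman's rho between the levels of the 2 transporters was 0.174 over all 380 samples and, within regions, lay between -0.023 in AMY and 0.633 in vCA3. It was above 0 in 11 of 12 regions. These samples share a size factor and come from the same mice, so the values are a description only.

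Of the other 68 assays, those most like *Slc6a15* over the 380 samples were *Fam117b* (rho 0.581), *Fscn1* (0.550), which encodes an actin-bundling protein, and *Psmb3* (0.53), a proteasome subunit. Among the least like it were *Rps12* (-0.520), a ribosomal protein, and *Gart* (-0.473), an enzyme of purine synthesis. These values pool the regions and the low samples of Pit, dDG and vDG. Over the 285 samples of the other 9 regions, rho was 0.62 for *Psmb3*, 0.61 for *Hsp90aa1*, which was not among the first 3 over all samples, 0.54 for *Fam117b* and 0.36 for *Fscn1*. There it was -0.366 for *Gart* and -0.350 for *Rps12*, neither of which was among the 3 lowest. Over the 380 samples centred on each region, *Rps12* (-0.651) and *Gart* (-0.561) were the lowest. *Fscn1* led there (0.567), and *Psmb3* had 0.360. These centred values still hold the low samples of Pit, dDG and vDG. *Slco3a1* had weaker relations. Its highest values were with *Fth1* (0.348), the ferritin heavy chain, *Hsp90aa1* (0.348), a heat shock protein, and *Abhd5* (0.318), a lipase co-activator, and its lowest with *Nr3c1* (-0.341), the glucocorticoid receptor, *Cd47* (-0.305) and *AW209491* (-0.292). These values pool regions whose means differ. Over the 9 regions the highest were *Nedd4* (0.412), a ubiquitin ligase named after its values were seen, and *Abhd5* (0.403), with *Fth1* at 0.259 and *Hsp90aa1* at 0.219, and centred on each region *Psmb3* led (0.477). Over the 9 regions *Nr3c1* (-0.229), *Cd47* (-0.223) and *AW209491* (-0.170) were not among the 3 lowest, and centred on each region rho with *Nr3c1* was -0.136.

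*Slc7a7* had a median normalized value of 21.0 and no read in 73 of the 380 samples, so its values are coarse. Its median in Pit, dDG and vDG was 76.9 where *Anxa2* was over 1000 and 27.5 where it was under, 2.79-fold higher and thus opposite in direction to *Slc6a15*. Over the mouse it differed by -0.19 for MS against Co (-0.62 to 0.25, adjusted p = 0.98 by limma) and by 0.09 for inject against naive (-0.35 to 0.53, adjusted p = 0.98 by limma).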

How the data were processed

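Normalized values of 69 assays in 380 samples were used. The deposited values are a signal, reads per assay divided by a DESeq2 size factor per sample, which the authors made from TruSeq Targeted RNA libraries after quality filtering and alignment with BWA to the assay manifest. The labels name the build mm10. Every value was a whole multiple of a step of its sample (100% of 26220 values within 0.1 read), from which reads per library were recovered. They limit precision by counting error only, since amplified reads are not independent molecules.

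Values were transformed to log2(value + 1) and fitted with limma 3.58.1 in R 4.3.3 to all assays, within each region, across regions and over mouse means, with Benjamini-Hochberg adjustment and a threshold of 0.1. Nothing in the labels says how same-region samples of a group were collected beyond the mouse number, so p-values measure the spread between samples. The fits were tested on simulated data. Levels and figures were computed with matplotlib 3.10.9, scipy 1.17.1, pandas 2.3.3 and numpy 2.4.6 under Python 3.11.15. Alternatives covered the pseudocount, filter, scaling, covariates, threshold and libraries left out.

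Members and lists were chosen with earlier results of these data known. The genes named are the 2 members, the other solute carrier, *Anxa2*, *Ociad2*, and the 3 assays most like each member and the 3 least like it by Spearman's rho, of which 1 is not reported here. *Nedd4* was added after its values were seen.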

Additional observations from a re-analysis of the deposited data

Results flagged for a closer look

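Each gene's values were examined in the 48 groups of a region and label, and its means per mouse in the 4 label groups. Of 104 groups, 13 held a sample whose gap to its nearest neighbour exceeded Dixon's critical value for the size of the group. No mean per mouse was among them. For normally distributed values chance alone would flag about 1 in 20. The values by region are on a linear scale, and groups of Pit, dDG and vDG mix high and low samples of *Slc6a15*. The count is therefore not read as an excess.

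For *Slc6a15* there were 6 such samples. The highest were in PVN at 1024 (Co inject, mouse 249) and 1128 (Co naive, mouse 227), and in vCA1 at 954 (Co naive, mouse 253). The lowest were in dCA1 at 171 (MS inject, mouse 97), and in vDG at 50.9 (Co naive, mouse 255) and 53.0 (MS inject, mouse 99). Both vDG samples are among those with *Anxa2* over 1000.

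For *Slco3a1* there were 7 such samples, each the highest of its group. They lay in CER at 337 (Co naive, mouse 227), Pit at 395 (MS naive, mouse 103), dCA1 at 323 (MS naive, mouse 109), dCA3 at 681 (Co naive, mouse 255) and 586 (MS inject, mouse 81), vCA3 at 583 (Co inject, mouse 235) and vDG at 373 (MS inject, mouse 83). The last is the sample whose *Slc6a15* value of 800 also stood apart. The samples with 1 read of *Slco3a1* in PVN and vCA1 were not among them on this linear scale.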

How the results depend on the processing

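Of 301 values recomputed under alternatives, 4 changed their side of the threshold or moved a count by over 1.5 times, where counts of region pairs without Pit, dDG and vDG (36 pairs) are set against those of all 66. A further 14 changed sign without passing a test either way. For *Slc6a15* status over the mouse these were the value without Pit, dDG and vDG (0.019) and 11 of those that leave out a mouse (-0.043 to 0.021 over all mice). For its interaction they were the values without these regions (-0.0067) and in the 6 regions AMY, BNST, PFC, PVN, dCA1 and vCA1 (-0.0062). At a threshold of 0.05, 37 rather than 45 pairs of *Slco3a1* differed. With 5 principal components of the residuals as covariates, 3 tests of *Slc6a15* within regions passed. These were status (0.25 on the log2 scale, adjusted p = 0.052) and injection (-0.31, adjusted p = 0.022) in vCA3 and the interaction in vDG (1.85, adjusted p = 3.53e-05). The log2 differences are those without covariates and only the intervals narrowed, since components of the residuals take up spread by construction. With the same covariates 102 of 2478 tests over all assays passed. With 1 component, chosen after seeing the data, 1 test of *Slc6a15* passed, the vDG interaction (adjusted p = 0.024). With an *Anxa2* term and without 3 libraries, chosen likewise, 1 test passed, again that interaction (adjusted p = 0.055). Without Pit, dDG and vDG, 21 region pairs of *Slco3a1* differed, of 36 rather than 66 (35.8% over all assays). On the same 36 pairs the fit to all regions had 26, which held these 21, a move of under 1.5 times. For *Slc6a15* the number on these 36 pairs rose from 2 to 14, by more than 1.5 times. With values rescaled to the same total, 17 of 21 pairs of *Slc6a15* and 40 of 45 of *Slco3a1* still differed, and none turned. Without the 3 libraries that stand apart (a choice made after seeing the data) all 21 and 45 pairs still differed. With the mouse number as a replicate block, 21 and 45 pairs differed, and the adjusted p of status by region (0.99974) and injection by region (0.99999) stayed as they were. Since samples of a mouse did not deviate together in the 9 regions examined, the number was not used as a pairing. Leaving out each mouse in turn, the *Slco3a1* differences ran from 0.08 to 0.14 for status and from -0.14 to -0.09 for injection. In the 6 regions they were 0.19 and -0.23, and without the 3 libraries 0.10 and -0.07. A planned count test of the recovered reads was not run. Each gene had under 30 reads in 6 samples, where counting error limits its value.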
